A study of Homo sapiens with 6 samples.

Results

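The 7 genes of mitochondrial DNA (mtDNA) that encode subunits of respiratory complex I were examined: MT-ND1, MT-ND2, MT-ND3, MT-ND4L, MT-ND4, MT-ND5 and MT-ND6. They were chosen by name, with earlier results of these data known, from the 50868 genes listed in the deposited tables, and all 7 were found and passed the filter on low values. The libraries came from a line labelled A549, a human lung adenocarcinoma line, transfected with a small interfering RNA (siRNA) against SF3B4 or with a scramble siRNA. SF3B4 is a protein of the U2 particle of the spliceosome, which recognises the branch point of introns. Genes of mtDNA have no introns.

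The control siRNA group held 3 libraries with the genotype label WT, and the SF3B4 siRNA group held 3 libraries. Both groups share the line and the transfection, and untransfected cells are not analysed here. Knockdown by an siRNA is transient and partial, and cells are not selected for it. Titles and treatment labels of all 3 name SF3B4 and were followed, although the genotype label of replicate 2 gives SF3B5 knockdown and that of replicate 3 gives SF3B6 knockdown. The sources used here give no siRNA sequence, dose or time. Replicates are called biological in the titles, with nothing on separate cultures, so p-values reflect only the spread among the sampled libraries, which may be technical.

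The label of the line was set against its markers. Among genes that A549 cells are known for, AKR1C1, AKR1C2, ALDH1A1 and ALDH3A1 stayed at or below 0.107 FPKM (fragments scaled to transcript length and library total) in every library. AKR1B10 was at 0.792 to 0.979 FPKM in control and 1.99 to 2.25 FPKM in SF3B4 siRNA libraries, and VIM at 2.69 to 4.06 and 1.41 to 1.65 FPKM. The column headers of the tables name another lung cancer line, H1650, so the libraries are called libraries labelled A549. All 5 epithelial markers had means above 1 FPKM, with sums of 1096 to 1280 FPKM in control and 1242 to 1326 FPKM in SF3B4 siRNA libraries. Of the markers of other cells, 1 of 4 fibroblast genes (COL1A1), 1 of 4 leukocyte genes (CD68) and 0 of 3 endothelial genes reached that mean. Of the alveolar and lung lineage genes, 0 of 4 reached it. PTPRC, LYZ, SFTPB and SFTPC were listed at 0 in all 6 libraries. The fibroblast sum was 1.32 to 1.48 FPKM in control and 2.27 to 2.36 FPKM in SF3B4 siRNA libraries, and the part of these lists in the results was not tested. The depth implied by the values was 17508324 to 18529278 fragments per library. SF3B4 itself was at 88.6, 92.0 and 93.8 FPKM in control replicates 1 to 3 and at 22.03, 17.67 and 22.31 FPKM in SF3B4 siRNA replicates 1 to 3. Its log2 fold change was -2.15 ± 0.10 (SE; limma, adjusted p = 8.8e-05), or 22.6% of the control mean.

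Complex I takes electrons from NADH and passes them to ubiquinone while pumping protons across the inner mitochondrial membrane. Its mtDNA-encoded subunits all lie in the membrane arm, which holds the proton channels, and the catalytic core that carries flavin and iron-sulphur clusters is encoded in the nucleus. Each mtDNA strand is transcribed into long RNAs that run through many genes and are then cut, mostly at the tRNAs between them, so the level of a message reflects transcription, cutting and decay. MT-ND6 is the only complex I gene on the light strand: its RNA is made from the opposite strand to that of the other members, and in human cells it lacks the poly(A) tail that the other messages carry.

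The positions below are on chromosome M of GRCh38, from the GENCODE 29 annotation, 1-based, and each gene is a single exon without introns. MT-ND1 (ENSG00000198888) spans 3307 to 4262, MT-ND2 (ENSG00000198763) 4470 to 5511, MT-ND3 (ENSG00000198840) 10059 to 10404 and MT-ND4L (ENSG00000212907) 10470 to 10766. MT-ND4 (ENSG00000198886) spans 10760 to 12137, MT-ND5 (ENSG00000198786) 12337 to 14148 and, on the other strand, MT-ND6 (ENSG00000198695) 14149 to 14673. The genes run from 297 bases (MT-ND4L) to 1812 bases (MT-ND5) in length.

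The strand of a member can be read from its letters. The first 60 bases of the coding strand of 4 members are printed 5′ to 3′ with every G in capitals, because G content separates MT-ND6 from the rest. They come from the GENCODE 29 transcripts, M 14614 to 14673 (minus strand) for MT-ND6, and, on the plus strand, 3307 to 3366 for MT-ND1, 10059 to 10118 for MT-ND3 and 12337 to 12396 for MT-ND5.
MT-ND6: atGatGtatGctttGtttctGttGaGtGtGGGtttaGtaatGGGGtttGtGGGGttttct
MT-ND1: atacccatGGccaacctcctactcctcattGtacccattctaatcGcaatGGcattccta
MT-ND3: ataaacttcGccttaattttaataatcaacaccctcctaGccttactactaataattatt
MT-ND5: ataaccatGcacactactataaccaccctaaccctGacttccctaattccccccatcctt

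The MT-ND6 stretch holds 21 G and 3 C, that of MT-ND1 6 G and 22 C, that of MT-ND3 2 G and 15 C, and that of MT-ND5 2 G and 26 C. Over the whole gene, G made up 35.6% and C 7.05% of MT-ND6. In the 6 heavy-strand members G made up 9.50% to 12.1% and C 29.5% to 36.0%. MT-ND6 and its neighbour MT-ND5 meet end to end with 0 bases between them, each running towards the other.

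MT-ND4L and MT-ND4 are read from a single message and overlap by 7 bases, in different reading frames. The junction is shown in capitals within M 10736 to 10790 (plus strand), because fragments across it belong to both genes.
MT-ND4L/MT-ND4: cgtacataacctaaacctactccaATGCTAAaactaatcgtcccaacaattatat

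FPKM are levels per length, but those of short or overlapping genes also depend on how fragments were assigned, which is unknown here. MT-ATP8 and MT-ATP6, mtDNA genes of 207 and 681 bases that overlap on the same strand, stood at 3151 and 703 FPKM in control. The order of the members by level is therefore a description of FPKM only. MT-ND4L and MT-ND4 were the highest members. MT-ND4L stood at 4761, 4618 and 4049 FPKM in control replicates 1 to 3 and at 3769, 3234 and 3445 FPKM in SF3B4 siRNA replicates 1 to 3. MT-ND4, which forms a proton channel of the membrane arm, stood at 4057, 4068 and 3612 FPKM in control and at 3512, 3071 and 3147 FPKM in SF3B4 siRNA libraries. In both genes every SF3B4 siRNA library lay below every control library, and control replicate 3 was the lowest control. The control ranges of the 2 genes overlapped, although MT-ND4L was above MT-ND4 within each library.

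MT-ND3, MT-ND2 and MT-ND1 followed. MT-ND3, a small subunit at the junction with the peripheral arm, was at 1526, 1854 and 1738 FPKM in control and at 1306, 1248 and 1221 FPKM in SF3B4 siRNA libraries. MT-ND2, another channel subunit, was at 1767, 1667 and 1498 FPKM in control and at 1402, 1197 and 1243 FPKM in SF3B4 siRNA libraries. MT-ND1, which lies at the ubiquinone-binding site, was at 1414, 1416 and 1306 FPKM in control and at 1201, 1029 and 1144 FPKM in SF3B4 siRNA libraries. The groups did not overlap in any of the 3 genes. Within the control group the ranges of MT-ND3 and MT-ND2 overlapped, so their order did not exceed the spread between replicates, and in SF3B4 siRNA libraries MT-ND2 and MT-ND3 were likewise interleaved. The range of MT-ND1 lay below the ranges of both in control but overlapped with that of MT-ND2 after SF3B4 siRNA. Within each library MT-ND1 stayed below MT-ND2, with ratios of 0.857, 0.86 and 0.92 in SF3B4 siRNA replicates 1 to 3.

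MT-ND5, the third channel subunit, was the lowest heavy-strand member. It stood at 1102, 1099 and 976 FPKM in control and at 1026, 879 and 949 FPKM in SF3B4 siRNA libraries. SF3B4 siRNA replicate 1 lay above control replicate 3, so the groups overlapped. The highest heavy-strand mean was 4.23 times the lowest in control and 3.66 times in SF3B4 siRNA libraries.

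MT-ND6, a membrane subunit beside MT-ND3 and MT-ND4L, stood far below all other members. It was at 58.6, 45.2 and 38.4 FPKM in control replicates 1 to 3 and at 29.9, 25.4 and 37.3 FPKM in SF3B4 siRNA replicates 1 to 3. The groups did not overlap, but the lowest control and the highest SF3B4 siRNA library were close. MT-ND5, its nearest neighbour in level, was 22.4 times as high in control and 30.8 times as high in SF3B4 siRNA libraries.

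**Figure D1:**
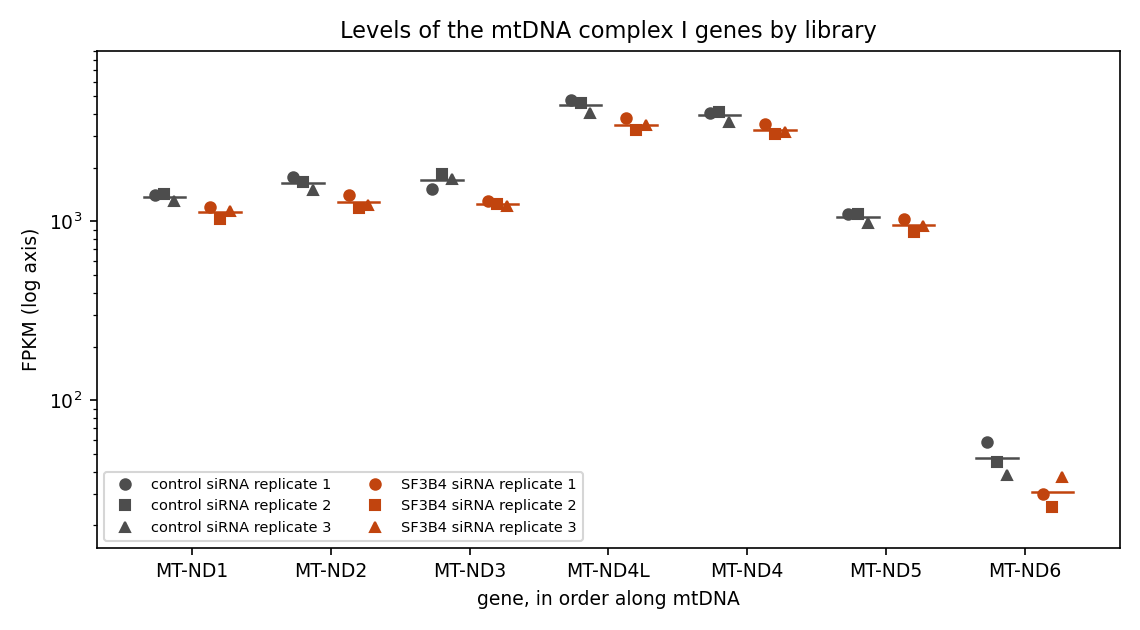
FPKM of the 7 complex I genes of mtDNA in each library, on a log axis, with control siRNA in grey and SF3B4 siRNA in orange; symbols give the replicate and lines the group means. SF3B4 siRNA libraries lie below all controls in every gene but MT-ND5, and MT-ND6 (25.4 to 58.6 FPKM) lies far below the other members.

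Of the 7 members, 6 fell after SF3B4 siRNA at an adjusted p under 0.05 and none rose. Among all 9685 genes tested, 18.1% were called lower, 16% were called higher and 34.1% were called in either direction. All 7 log2 fold changes were below 0, with a median of -0.36, against -0.0035 over all genes tested. In 6 of the 7 members the groups did not overlap, with SF3B4 siRNA lower, which held for 25.7% of all genes tested. FPKM is a share of the library, so these are changes relative to the other RNA, and in bulk RNA fewer cells with these messages and fewer messages per cell cannot be told apart.

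MT-ND3 fell from 1706 ± 166 to 1258 ± 43.6 FPKM (mean ± SD, n = 3 per group). Its log2 fold change was -0.44 ± 0.08 (SE; limma, adjusted p = 0.0044), with a 95% interval of -0.61 to -0.26. MT-ND4L fell from 4476 ± 377 to 3482 ± 270 FPKM, -0.36 ± 0.08 in log2 (SE; limma, adjusted p = 0.012). MT-ND2 fell from 1644 ± 136 to 1281 ± 108 FPKM, also -0.36 ± 0.08 (SE; limma, adjusted p = 0.013). SF3B4 siRNA libraries thus held 73.7% of the control level of MT-ND3, 77.8% of MT-ND4L and 77.9% of MT-ND2.

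MT-ND1 and MT-ND4 also fell. MT-ND1 went from 1379 ± 62.9 to 1125 ± 87.8 FPKM, -0.30 ± 0.07 in log2 (SE; limma, adjusted p = 0.015). MT-ND4 went from 3912 ± 260 to 3243 ± 236 FPKM, -0.27 ± 0.07 in log2 (SE; limma, adjusted p = 0.024). The call of MT-ND4 was lost in 4 of the 6 fits that left out a library: limma's adjusted p was 0.071 when control replicate 1 or 2 was left out, 0.073 for SF3B4 siRNA replicate 2 and 0.072 for SF3B4 siRNA replicate 3. MT-ND5 did not pass the test, at 1059 ± 71.5 FPKM in control and 951 ± 73.6 FPKM in SF3B4 siRNA libraries. Its log2 fold change was -0.16 ± 0.08 (SE; limma, adjusted p = 0.16), with a 95% interval of -0.33 to 0.02 that includes the size seen for MT-ND1 and MT-ND4.

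MT-ND6 fell from 47.4 ± 10.3 to 30.9 ± 6.04 FPKM (mean ± SD, n = 3 per group), with the widest interval of the members. Its log2 fold change was -0.61 ± 0.19 (SE; limma, adjusted p = 0.046), with a 95% interval of -1.07 to -0.16. The call did not hold without control replicate 1 (limma, adjusted p = 0.093), control replicate 2 (0.095), SF3B4 siRNA replicate 1 (0.12) or SF3B4 siRNA replicate 2 (0.13), nor after rescaling to TPM (0.0503). By an exact two-sided permutation test on FPKM, every member gave p = 0.1, the smallest that 3 against 3 libraries allow, except MT-ND5 with p = 0.2.

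The depth behind MT-ND6 was far lower than behind the other members. Its values came to 561, 421 and 366 fragments in control replicates 1 to 3 and to 275, 241 and 363 fragments in SF3B4 siRNA replicates 1 to 3. The heavy-strand members held 7819 to 101998 fragments per library. The exact 95% Poisson interval, which covers counting error only, was 34.6 to 42.5 FPKM in control replicate 3 and 33.6 to 41.4 FPKM in SF3B4 siRNA replicate 3, so those libraries cannot be told apart at this depth. Control replicate 1, at 53.8 to 63.6 FPKM, lay above the intervals of all other libraries. Counting error gave MT-ND6 a coefficient of variation of 4.22% to 6.44%, against an SD between replicates of 21.7% of the mean in control and 19.6% in SF3B4 siRNA libraries. For the heavy-strand members counting error was at most 1.13% and the SD 3.47% to 9.75% of the mean. The sources used here do not give the strand setting of the counting, so light-strand RNA of MT-ND6 and any heavy-strand RNA running across it cannot be told apart.

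**Figure D2:**
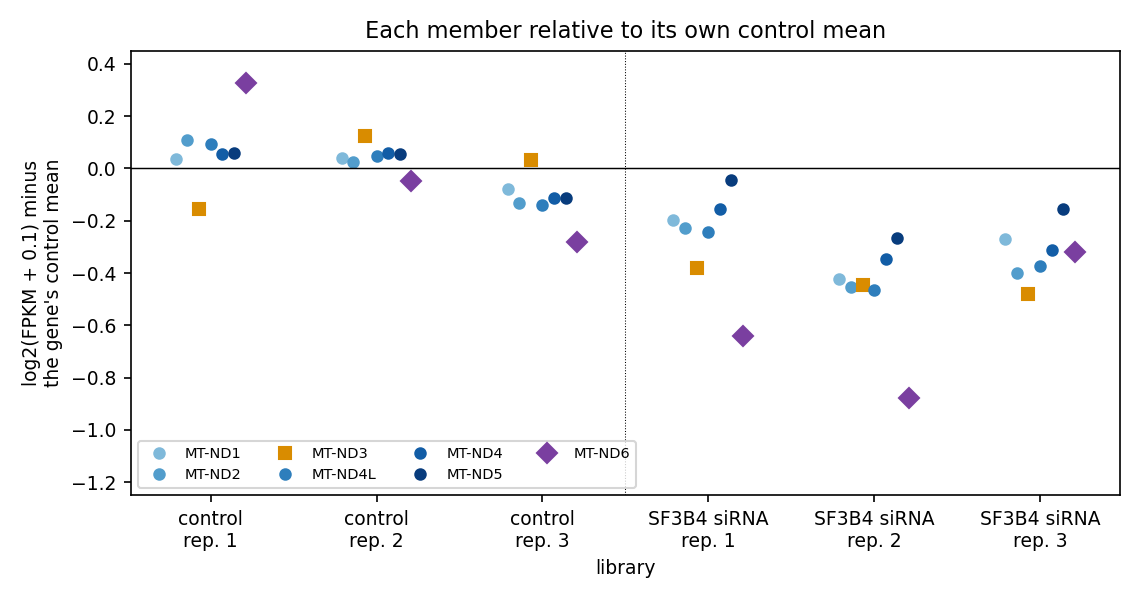
Level of each member in each library as log2(FPKM + 0.1) minus the gene's own control mean, with MT-ND6 as purple diamonds, MT-ND3 as orange squares and the other members in blue. The 5 blue members move together from library to library, MT-ND3 follows another order among the controls, and MT-ND6 spreads the widest.

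Whether MT-ND6 fell by more than the heavy-strand members was asked of their ratio within each library. MT-ND6 came to 2.82%, 2.13% and 2.01% of the geometric mean of the 6 heavy-strand members in control replicates 1 to 3. In SF3B4 siRNA replicates 1 to 3 it came to 1.70%, 1.65% and 2.31%. SF3B4 siRNA replicate 3 lay above control replicates 2 and 3, so the groups overlapped. On the log2 scale the ratio averaged -5.44 ± 0.26 in control and -5.74 ± 0.27 in SF3B4 siRNA libraries (mean ± SD, n = 3), a difference of -0.30 ± 0.22 (SE). The difference was -0.15 when control replicate 1 was left out and -0.45 when SF3B4 siRNA replicate 3 was.

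Against single heavy-strand members the log2 ratio of MT-ND6 was also lower on average after SF3B4 siRNA, with overlapping groups in all 6 ratios. The difference was smallest against MT-ND3, at -0.18 ± 0.30 (SE; exact permutation p = 0.6), and turned to 0.06 without control replicate 1. It was -0.25 ± 0.20 against MT-ND2, -0.25 ± 0.19 against MT-ND4L, -0.32 ± 0.20 against MT-ND1 and -0.34 ± 0.22 against MT-ND4 (exact permutation p = 0.3 for each). Against MT-ND5, its neighbour on the genome, it was -0.46 ± 0.20 (exact permutation p = 0.2). None of these 6 two-sided exact permutation tests, which share MT-ND6 and are not independent, separated the light-strand gene from a heavy-strand gene beyond the spread between replicates, and none could have given a p below 0.1.

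**Figure D3:**
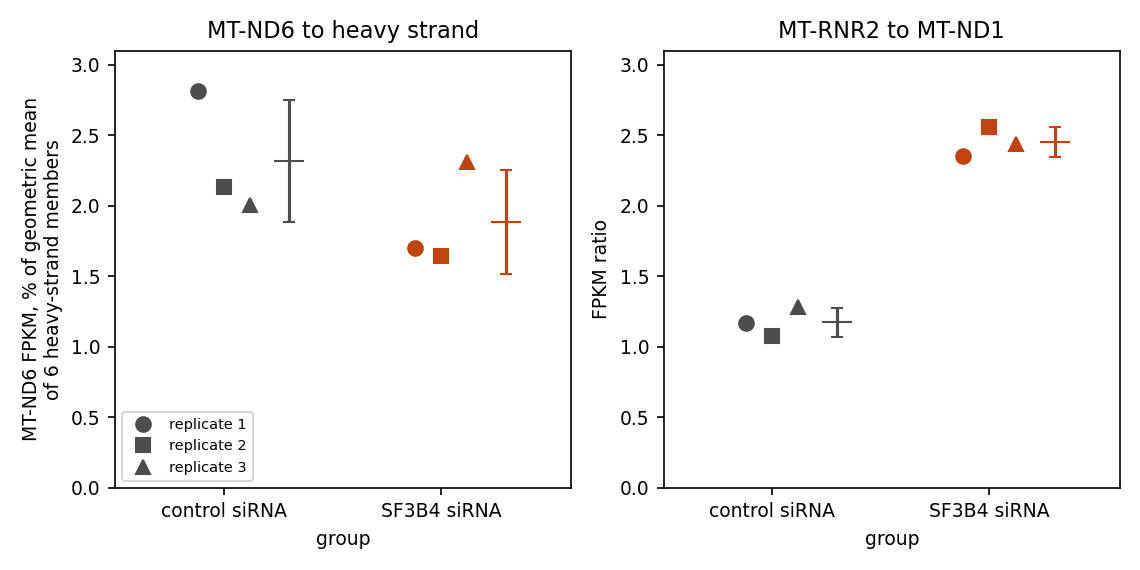
Left, MT-ND6 as a percentage of the geometric mean of the 6 heavy-strand members in each library; right, the ratio of MT-RNR2 to MT-ND1, both in FPKM, with bars for the mean and SD of 3 libraries. The groups overlap on the left (1.65% to 2.82%) and stand apart on the right (1.07 to 1.28 against 2.35 to 2.56).

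Ratios between neighbouring heavy-strand members were compared in 4 pairs. This was planned as a description without p-values, so the tests given here were not planned. The ratio of MT-ND4 to MT-ND5, which lie next to each other apart from tRNA genes, was 3.68, 3.70 and 3.70 in control replicates 1 to 3 and 3.42, 3.49 and 3.32 in SF3B4 siRNA replicates 1 to 3. All SF3B4 siRNA libraries lay below all controls in this ratio, with a difference in mean log2 of -0.12 (exact permutation p = 0.1, the smallest possible). MT-ND4L to MT-ND4, which share a message, went from 1.17, 1.14 and 1.12 to 1.07, 1.05 and 1.10, a difference of -0.09 in log2, again without overlap (exact permutation p = 0.1). The ratios of MT-ND1 to MT-ND2 and of MT-ND3 to MT-ND4L overlapped between the groups (exact permutation p = 0.4 and 0.6). Fragments across the junction shown above can enter both MT-ND4L and MT-ND4, and how they were assigned is unknown here.

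Within the groups, 5 heavy-strand members moved together. Over the 6 libraries, the deviations of log2 level from the group mean correlated at 0.867 to 0.985 in the 10 pairs of MT-ND1, MT-ND2, MT-ND4L, MT-ND4 and MT-ND5. MT-ND3 correlated with these at -0.155 to 0.0975, and MT-ND6 with the 6 heavy-strand members at -0.612 (MT-ND3) to 0.644 (MT-ND1). These are descriptions of 6 libraries, in which all members share depth and total. In words, control replicate 3 was the lowest control in every member but MT-ND3, for which it was control replicate 1. SF3B4 siRNA replicate 2 was the lowest of its group in every member but MT-ND3, for which it was replicate 3.

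The members were compared with the other genes of mtDNA. Of 37 annotated mtDNA genes, 15 were listed, and the 22 tRNA genes are not analysed here. The 6 other messages, for cytochrome c oxidase, ATP synthase and cytochrome b, all had log2 fold changes below 0, from -0.28 (MT-ATP8) to -0.09 (MT-CO1), with a median of -0.20. Of these, 1 of 6 was called lower, against 18.1% called lower over all genes tested. This was MT-CO3, from 5359 ± 245 to 4771 ± 197 FPKM (limma, adjusted p = 0.0496). That call was lost in 5 of the 6 fits that left out a library, where the adjusted p reached 0.156, holding only without control replicate 1. MT-CYB, which lies next to MT-ND6, had a log2 fold change of -0.22 (limma, adjusted p = 0.055). MT-ATP6 and MT-CO2 also lay just above the threshold (limma, adjusted p = 0.058 and 0.062), and MT-ATP8 and MT-CO1 further above (0.11 and 0.50). In 3 of these 6 messages the groups did not overlap, with SF3B4 siRNA lower, which held for 25.7% of all genes tested. The members made up 28.8% ± 0.35 of the fragments on mtDNA messages in control and 27.0% ± 0.65 in SF3B4 siRNA libraries (SD, n = 3), without overlap. As a share of all fragments they went from 1.23% ± 0.078 to 1.01% ± 0.073, and MT-ND6 made up 0.201% of the members' fragments in control and 0.161% in SF3B4 siRNA libraries.

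Both mitochondrial rRNAs rose, while 6 of the 7 members fell. MT-RNR1, the small-subunit rRNA, went from 810 ± 42.5 to 1069 ± 115 FPKM, a log2 fold change of 0.40 (limma, adjusted p = 0.010). MT-RNR2, the large-subunit rRNA, went from 1616 ± 83.2 to 2749 ± 99.9 FPKM, a log2 fold change of 0.77 (limma, adjusted p = 0.00016). MT-RNR2 lies directly before MT-ND1 on the heavy strand, separated by a tRNA gene. The ratio of MT-RNR2 to MT-ND1 was 1.17, 1.07 and 1.28 in control replicates 1 to 3 and 2.35, 2.56 and 2.44 in SF3B4 siRNA replicates 1 to 3. The difference in mean log2 was 1.06 (exact permutation p = 0.1, the smallest possible, not planned), and the groups stood well apart. The sources used here do not say how rRNA was depleted or poly(A) RNA selected. A list of 7 RNAs without poly(A) tails, 6 of them listed, summed to 33.2 to 50.3 FPKM in control and 38.0 to 57.9 FPKM in SF3B4 siRNA libraries, with overlapping ranges. Most of this sum was RN7SL1, at 25.85 to 44.19 FPKM, so it says little about the others. H4C3 was at 0.252 to 0.777 FPKM in control and 0 in all SF3B4 siRNA libraries, and the other listed RNAs overlapped between the groups. The part of selection in the levels of the rRNAs and of MT-ND6 was not tested.

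**Figure D4:**
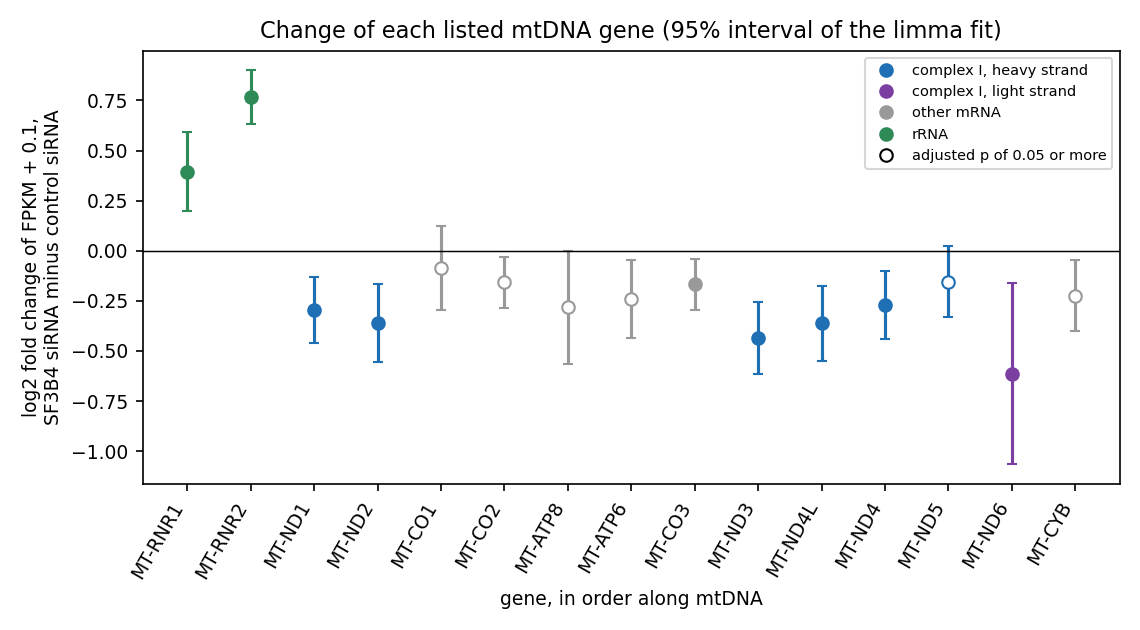
Log2 fold change (SF3B4 siRNA minus control siRNA, on log2(FPKM + 0.1)) of the 15 listed mtDNA genes in their order on the genome, with 95% intervals of the limma fit; open circles have an adjusted p of 0.05 or more. The 2 rRNAs lie above 0 (0.40 and 0.77) and all 13 messages below 0, MT-ND6 (-0.61) the lowest and with the widest interval.

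Nuclear DNA holds copies of mtDNA, and fragments could be split between a member and its copies. The symbols of the files name 19 to 35 such pseudogenes per member. MTND2P28, on chromosome 1 (629640 to 630683, plus strand), shared 98.4% of 1042 aligned bases with MT-ND2 and averaged 13.8% of its level. It went from 232 ± 16.0 to 172 ± 18.9 FPKM, a log2 fold change of -0.43 (limma, adjusted p = 0.0089). Summed with this copy, MT-ND2 had a difference of -0.37 in mean log2, close to its own -0.36. MTND4P12, on chromosome 5 (134926660 to 134928036, minus strand), matched MT-ND4 at 95.8% and reached 0.495% of its level. The top copies of the other members came to at most 0.269% of their member's mean (MTND6P4, for MT-ND6), and no copy of MT-ND3 had a value above 0. Values of MT-ND2 and of its copy are therefore uncertain, since the sources used here do not say how fragments that match both were counted.

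The nuclear genes around these subunits were read from lists drawn up with earlier results of these data known. Nuclear core subunits of complex I carry the flavin and the iron-sulphur clusters, and the subunits below are described singly, with no count over the list. NDUFV1, which binds NADH and flavin, rose from 11.3 ± 1.26 to 17.2 ± 0.672 FPKM (limma, adjusted p = 0.0028), and NDUFV2 from 18.7 ± 0.126 to 24.86 ± 3.104 FPKM (limma, adjusted p = 0.014). NDUFS7 rose from 4.97 to 6.22 FPKM (limma, adjusted p = 0.033), a call lost in 5 of the 6 fits that left out a library (adjusted p up to 0.102). It held only without control replicate 2. NDUFS1, NDUFS8 and NDUFS3 did not pass, with log2 fold changes of 0.25, 0.12 and 0.10, and NDUFS1 passed without control replicate 1 (limma, adjusted p = 0.038).

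Accessory subunits of the membrane arm surround the mtDNA-encoded ones. Of 22 tested, 6 rose and 2 fell, against 16% called higher and 18.1% called lower over all tested genes. The median log2 fold change was 0.19. Taken in either direction, the 8 calls are a share near the 34.1% called over all tested genes. NDUFB7, on the intermembrane-space side of the distal arm, fell from 381 ± 19.2 to 187 ± 17.3 FPKM (limma, adjusted p = 0.00018). NDUFA8 rose from 90.01 ± 5.40 to 141 ± 4.37 FPKM (limma, adjusted p = 0.00046) and NDUFAB1, the mitochondrial acyl carrier protein, from 89.0 ± 2.63 to 120 ± 1.91 FPKM (limma, adjusted p = 0.0011). Without SF3B4 siRNA replicate 1, 4 rose, and without SF3B4 siRNA replicate 2, 7 rose and 1 fell. Of 17 assembly factors of the membrane arm, 14 were tested, of which 2 rose and 2 fell, with a median of -0.03, against 16% called higher and 18.1% called lower over all tested genes. When a library was left out at most 1 rose, and none did without control replicate 3 or SF3B4 siRNA replicate 2. ACAD9, named after its value was seen, lost its call of higher in all 6 such fits (limma, adjusted p up to 0.0944). Falls numbered 3 without control replicate 2 and 2 in the other 5 fits. DMAC1, a factor for the distal membrane arm that holds MT-ND5, fell from 14.6 ± 0.199 to 6.77 ± 0.616 FPKM (limma, adjusted p = 0.00019). NDUFAF3 fell from 48.2 to 39.6 FPKM (limma, adjusted p = 0.012). NDUFAF1 rose from 3.27 to 4.33 FPKM (limma, adjusted p = 0.019), not without control replicate 3 or SF3B4 siRNA replicate 2 (adjusted p up to 0.0665).

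The genes that make and keep mtDNA messages were read against the same 34.1% called in either direction. Of 9 genes of mtDNA transcription, 4 were tested, 1 fell and none rose. TFB2M, the transcription factor that opens mtDNA promoters, fell from 3.14 ± 0.208 to 1.86 ± 0.550 FPKM (limma, adjusted p = 0.028). Its adjusted p reached 0.079 when a control library was left out, which lost the call for each of the 3. POLRMT, the mitochondrial RNA polymerase, stood at 8.08 ± 0.973 and 7.39 ± 0.127 FPKM (limma, adjusted p = 0.39) and MTERF3 at 1.478 and 1.297 FPKM (limma, adjusted p = 0.38). MRPL12, a ribosomal protein that also binds POLRMT, stood at 135 ± 10.3 and 88.6 ± 31.8 FPKM and did not pass (limma, adjusted p = 0.069), but did without SF3B4 siRNA replicate 1 (adjusted p = 0.00082).

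Among 8 tested of 13 genes that cut and modify mtDNA transcripts, 1 rose and 1 fell. PUS1, a pseudouridine synthase of tRNAs, fell from 1.82 ± 0.047 to 1.15 ± 0.22 FPKM (limma, adjusted p = 0.014). HSD17B10, a subunit of mitochondrial RNase P, rose from 120 ± 3.34 to 138 ± 7.01 FPKM (limma, adjusted p = 0.041), a call that held without SF3B4 siRNA replicate 2 and in no other fit that left out a library, nor after median ratio scaling. TRIT1, another tRNA-modifying enzyme, stood at 1.27 and 1.08 FPKM (limma, adjusted p = 0.27). Of 15 genes of mtRNA stability and decay, 12 were tested, 1 rose and none fell. FASTKD5, which acts on messages whose ends are not flanked by tRNAs, rose from 3.88 ± 0.133 to 5.28 ± 0.675 FPKM (limma, adjusted p = 0.022), a call lost without control replicate 3, SF3B4 siRNA replicate 1 or SF3B4 siRNA replicate 3 (adjusted p up to 0.0707). LRPPRC, which binds and stabilises heavy-strand messages, stood at 2.53 ± 0.561 and 1.85 ± 0.174 FPKM (limma, adjusted p = 0.093), and passed without control replicate 3 (adjusted p = 0.037). PTCD3, a protein of the mitochondrial ribosome, stood at 1.73 and 1.27 FPKM (limma, adjusted p = 0.053). GRSF1, an RNA-binding protein that acts on MT-ND6 among others, stood at 4.38 and 3.41 FPKM (limma, adjusted p = 0.084). LRPPRC and POLRMT lie outside the rule for named genes and were chosen after their values were seen.

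Of 16 genes of mtDNA replication and nucleotide supply, 11 were tested, 2 rose and 4 fell, with a median log2 fold change of -0.23, against 16% of all tested genes called higher and 18.1% called lower. The count of falls was 2 when control replicate 1, control replicate 3, SF3B4 siRNA replicate 1 or SF3B4 siRNA replicate 2 was left out, and 1 rose in every fit that left out a library other than SF3B4 siRNA replicate 1. Among the 5 of these genes with a mean of at least 5 FPKM the median was 0.11. POLG, the mtDNA polymerase, fell from 8.55 ± 0.30 to 6.23 ± 0.522 FPKM (limma, adjusted p = 0.0073). TOP3A, a topoisomerase that separates daughter genomes, fell from 3.77 to 2.62 FPKM (limma, adjusted p = 0.0075). DGUOK, a kinase for purine deoxynucleosides in mitochondria, rose from 28.0 to 35.6 FPKM (limma, adjusted p = 0.012). These 3 calls held whichever library was left out, whereas the calls of MGME1 and TWNK (lower) and TOP1MT (higher), named here after their values were seen, were lost in 4, 5 and 5 of the 6 such fits. The amount of mtDNA was not measured, so fewer copies of mtDNA and less RNA per copy cannot be told apart. Of 13 translation genes 7 were tested, 1 rose and 1 fell, against the same 16% and 18.1% over all tested genes. GFM2, a factor for ribosome recycling, fell from 3.88 to 1.89 FPKM (limma, adjusted p = 0.0011), and TACO1, known for translation of MT-CO1, rose from 16.2 to 19.7 FPKM (limma, adjusted p = 0.015), not without control replicate 3, SF3B4 siRNA replicate 2 or SF3B4 siRNA replicate 3 (adjusted p up to 0.0511). MRRF, a factor that works with GFM2, stood at 1.45 and 1.16 FPKM (limma, adjusted p = 0.12).

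Of 8 regulators of mitochondrial biogenesis, 4 were tested. PPRC1, a coactivator of the PGC-1 family, fell from 8.14 to 6.13 FPKM (limma, adjusted p = 0.015). ESRRA, a nuclear receptor that works with that family, rose from 9.76 to 11.9 FPKM (limma, adjusted p = 0.028). That call was lost without control replicate 1 or 3 and without SF3B4 siRNA replicate 1 or 3 (adjusted p up to 0.0985). YY1 stood at 4.28 and 3.58 FPKM (limma, adjusted p = 0.074) and NRF1 at 2.62 and 2.74 FPKM (limma, adjusted p = 0.80).

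The genes whose pattern over the 6 libraries was most like that of the members were sought among 4724 nuclear genes with a mean of at least 5 FPKM, by Pearson correlation of log2(FPKM + 0.1). Nearest to MT-ND6 were SART3 (0.988), TXN (0.988) and SRSF7 (0.985). Nearest to the mean of the 6 heavy-strand members were NUMA1 (0.993), TST (0.987) and FAM83D (0.987). TST, a mitochondrial sulphur transferase, went from 11.3 ± 0.543 to 8.72 ± 0.561 FPKM (limma, adjusted p = 0.012) and FAM83D from 38.9 ± 7.43 to 17.1 ± 4.002 FPKM (limma, adjusted p = 0.0055), and the other 4 did not pass the test. With 6 libraries and this many genes searched, correlations of this size are a ranking only.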

How the data were processed

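RNA was measured in 6 libraries labelled A549, 3 per group, grouped by their titles. The authors deposited FPKM values, 1 per gene and library. HISAT2 2.0.4, StringTie 1.3.0 and GRCh38 appear in the submitters' processing notes, without roles. Total RNA and a VAHTS Universal V6 library kit are named in the labels' protocols. Annotation, strand setting, read layout and transcript selection: not given in the sources used here. No count test was run, since FPKM are normalized values. In single-exon genes 99.3% to 99.5% of the low values (up to 20 fragments) were whole numbers of fragments to within 0.02, which gave the depth per library, and the 15 mtDNA genes lay within 0.03. Counting intervals cover counting error only.

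Symbols were found for 49659 of 50868 identifiers, and 50111 were in GENCODE 29, which may differ from the authors' annotation. Genes at 1 FPKM or more in at least 3 libraries were tested with limma 3.58.1 in R 4.3.3 (trend and robust options, two-sided) on log2(FPKM + 0.1), a scale that understates changes of low genes. Benjamini-Hochberg adjustment ran over all tested genes, with a threshold of 0.05. The procedure was tested on simulated data. Ratios between members were compared by exact permutation over libraries, which was planned only for MT-ND6 against each heavy-strand member. Alternatives changed the pseudocount, filter, scaling, variance trend, minimum fold change and replicate block, or left out 1 library.

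Named genes were the members, the other mtDNA genes, SF3B4, the top nuclear copy of each member, up to 3 genes per list by adjusted p (every tested gene of lists of up to 8) and the 3 most alike patterns. The members and lists were chosen with earlier results of these data known. Results on some listed genes are not reported here.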

Additional observations from a re-analysis of the deposited data

How the results depend on the processing

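Over 17 alternatives, MT-ND1 and MT-ND3 lost their calls in limma only when a minimum fold change of 1.2 was asked for, MT-ND2 and MT-ND4L also under quantile normalization, MT-ND4 in 8 of 17 and MT-ND6 in 9 of 17, and MT-ND5 gained none. Members called lower numbered 3 under quantile normalization and 0 with the minimum fold change of 1.2. Quantile normalization assigns values by rank, so it cannot show a change in a gene whose rank stays the same. It set the log2 fold change of MT-ND4 to 0. No member changed sign under another scaling. That minimum fold change left 420 genes higher and 693 lower over all tested genes, and a mean of at least 5 FPKM left 1027 and 940. For MT-ND6 the log2 fold change stayed at -0.61 while its adjusted p rose to 0.11 without a filter, 0.054 without trend, 0.26 with the minimum fold change and 0.072 with the replicate block, and it was -0.59 (0.0503) after rescaling to TPM; leaving out 1 library gave -0.76 to -0.45. The difference in the log2 ratio of MT-ND6 to MT-ND3 ran from -0.344 (without SF3B4 siRNA replicate 3) to 0.0648, a reversal (without control replicate 1). The cause of these changes was not tested. By design, the minimum fold change sets a stricter null, and the fit without a filter covered 24450 genes. Deviations of same-numbered libraries over all tested genes correlated at -0.08, 0.0243 and -0.118, not each best with its own number. These values gave no sign of pairing by replicate number, but with 3 libraries per group they cannot exclude it. The replicate block gave 1290 genes higher and 1537 lower. MT-ND6 had the fewest fragments of the members, but its counting error was below its spread between replicates.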
